A study of Mus musculus with 32 samples.

Results

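The genes that encode potassium channel subunits were followed in interscapular brown adipose tissue of refed C57BL6/J male mice, measured on 32 one-colour Agilent arrays. A gene was included when its name in the scanner files was Kcn followed by letters and digits and when at least 1 of its probes was in the log2 table deposited by the authors. This gave 60 genes with 87 probes, out of 92 genes with 170 probes of that name on the array and out of 24523 genes measured in all. There were 4 groups of 8 arrays. Total ChREBP KO mice are null for Mlxipl and lack both the α and the β isoform of this carbohydrate-responsive transcription factor. In ChREBPβ KO mice CRISPR/Cas9 editing of embryos removed the exon used only by the β isoform, and the α isoform is kept. The paper reports higher α mRNA and protein in brown adipose tissue of male ChREBPβ-deficient mice of this strain. Each KO group had its own WT littermates, so that the total line and the ChREBPβ line each contributed a WT group. All mice were fasted for 24 hours and then refed for 18 hours with food and water containing 20% glucose. The labels number the arrays of a group as replicates, and the study's methods give its n as animals.

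Potassium channels let potassium leave the cell and set the resting membrane potential and its return after a depolarisation. The voltage-gated family opens on depolarisation and is the largest. Its Shaker, Shaw and Shal subfamilies carry the letters a, c and d, the g, s and v genes encode silent subunits that form no channel on their own, and the h and q genes encode the ether-a-go-go and KCNQ channels. Inward rectifiers (j) pass current best near the resting potential and include the pores of the ATP-sensitive channels. Two-pore-domain channels (k) carry leak currents. Calcium- or sodium-activated channels (ma, n, t, u) couple the membrane to those ions, and the auxiliary subunits (ab, e, ip, mb) modify the pores. Brown adipocytes are depolarised by noradrenaline, and the leak channel gene Kcnk3 is a known marker of this cell type.

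By family, the 60 genes were 28 of the 40 voltage-gated genes on the array, 9 of 15 inward rectifiers, 8 of 14 two-pore-domain channels, 6 of 8 calcium- or sodium-activated channels and 9 of 15 auxiliary subunits. Many signals were low. Of the 87 probes, 65 were well above background on all 32 arrays, 44 had a mean normalised log2 intensity under 6, and 5 failed the background flag on every array of at least 1 group. The lowest signal flagged as well above background lay between 4.26 and 4.77 on this scale, depending on the array. No probe was saturated. A further 83 probes of the family were on the array but not in the table. Of these, 49 were well above background on 0 arrays, 24 on 1 to 8 arrays and 10 on more than 8. Levels are given per probe and are not set against each other, because probes differ in brightness for reasons other than the amount of RNA. Where a gene had several probes, it was read by the brightest.

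The tissue was checked by marker genes. All 10 brown adipocyte markers were well above background on all 32 arrays. Skeletal muscle markers, 10 genes, differed between the lines: their mean log2 intensity ranged from 12.86 to 16.24 for WT and from 14.38 to 15.91 for KO arrays of the total line, but only from 5.52 to 11.99 for WT and from 5.56 to 11.39 for KO arrays of the ChREBPβ line. None of the 10 was called in either KO contrast. The mean of 7 liver markers varied within groups. In the total line it ranged from 5.65 to 11.04 over WT and from 5.44 to 8.90 over KO arrays. In the ChREBPβ line it ranged from 5.55 to 13.10 over WT and from 5.56 to 12.80 over KO arrays. None of the 7 was called in either KO contrast. Their median log2 fold change was -0.90 in total ChREBP KO and -0.005 in ChREBPβ KO. The brightest Mlxipl probe, which still gave a signal in both KO groups, fell from 16.15 ± 0.12 (SD, n = 8) in WT to 13.67 ± 0.15 in KO arrays of the total line. In the ChREBPβ line it fell from 16.34 ± 0.14 to 14.84 ± 0.10. In bulk tissue, fewer cells of a type and less RNA per cell cannot be told apart.

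The comparison of total ChREBP KO with its WT group asked which channel genes depend on both isoforms together. A gene was called when the adjusted p of its brightest probe was under 0.05 (limma, Benjamini-Hochberg over all probes). Of the 60 channel genes, 25 were called, 14 higher and 11 lower in the KO, while 44.1% of all 24523 genes were called (22.9% higher and 21.1% lower), a share close to that of the family. Of all called genes, 52.1% were higher. With median intensities scaled to the 75th percentile in place of quantile normalisation, 20 channel genes were higher and 9 lower, and 56.4% of all called genes were higher. With Agilent's processed signal scaled the same way, 13 were higher and 10 lower, and 47.3% of all called genes were higher. A change of at least 1.5-fold was found for 9 genes, where 10.1% of all genes had one. The KO and WT arrays did not overlap for 8 genes, against 16.6% of all genes. The median log2 fold change of the 60 genes was 0.06 and that of all genes 0.01. The voltage-gated family had 8 genes higher and 3 lower of 28, the inward rectifiers 2 higher and 1 lower of 9, the two-pore-domain channels 1 higher and 3 lower of 8, the calcium- or sodium-activated channels 2 higher and 0 lower of 6, and the auxiliary subunits 1 higher and 4 lower of 9. Among the genes with at least 1.5-fold were Kcng4, Kcnk3 and Kcnj15, which fell, and Kcnc2, Kcnd2, Kcna2, Kcnj14 and Kcnv1, which rose.

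**Figure D1:**
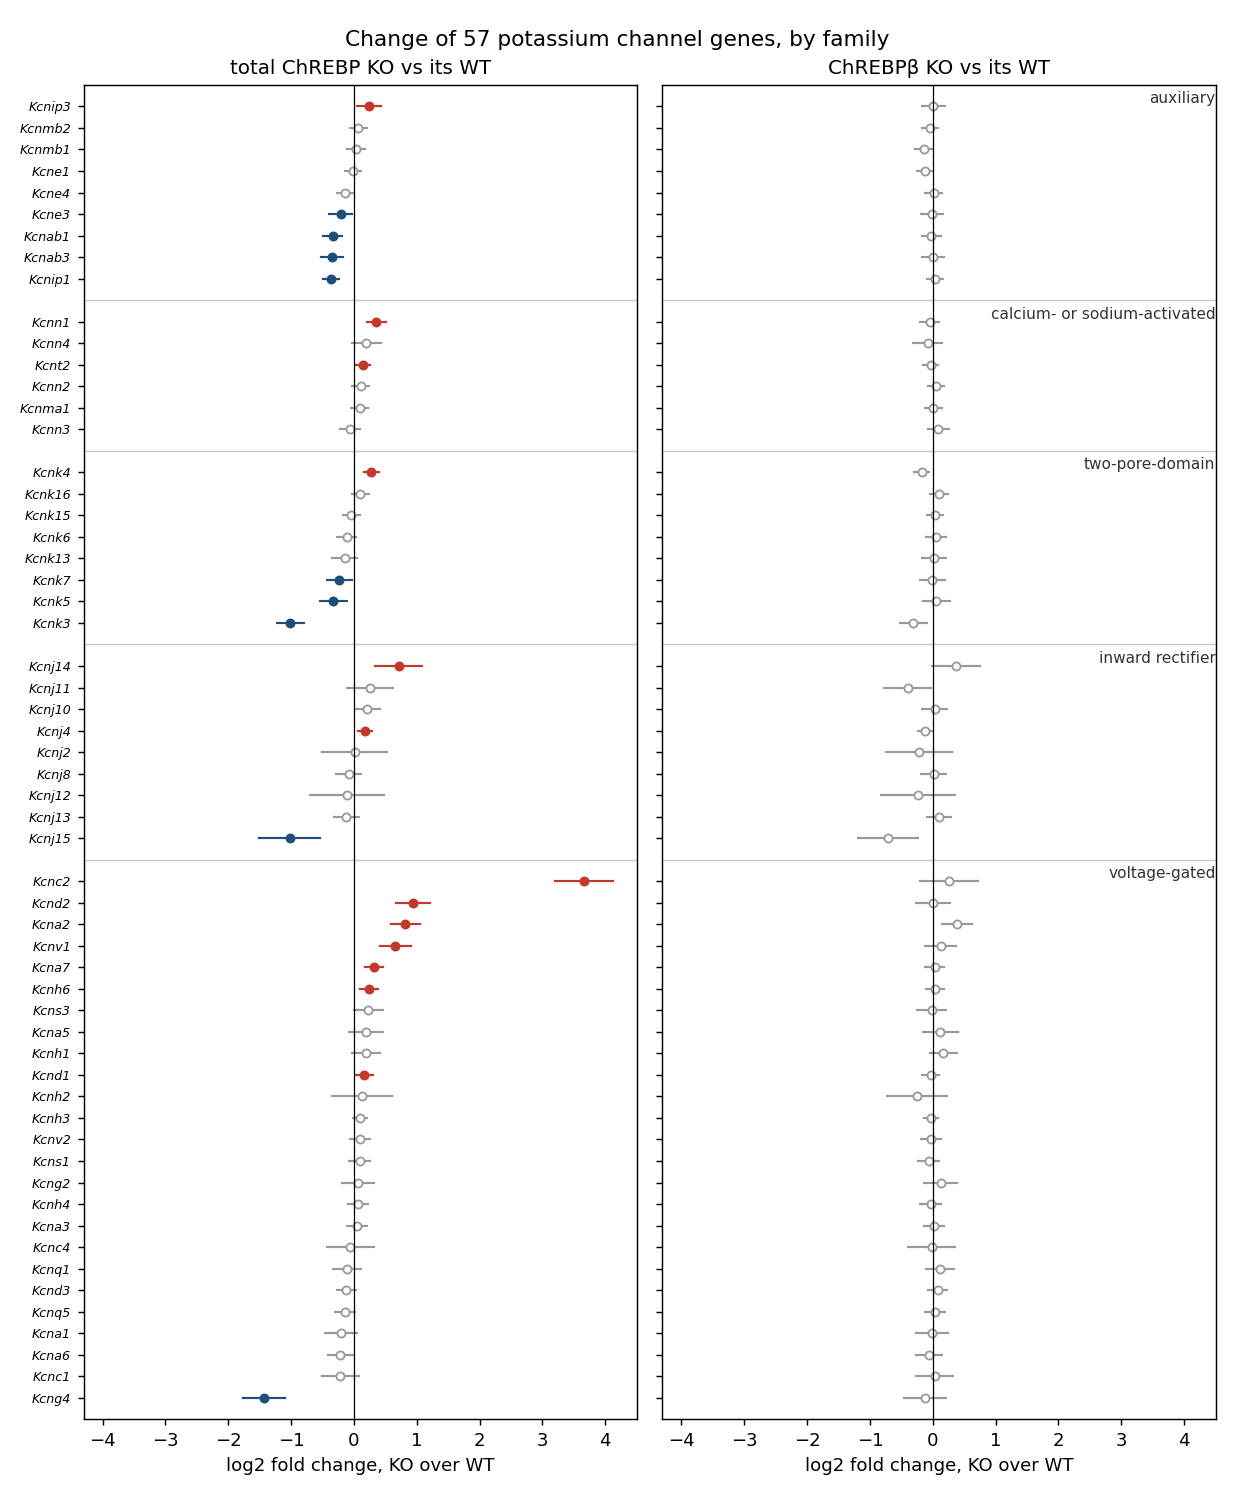
Log2 fold change of 57 of the 60 channel genes (brightest probe) in total ChREBP KO (left) and ChREBPβ KO (right) against the WT group of the same line, with the 95% confidence interval from limma over 8 arrays a group. Filled points were called, red higher and blue lower, and open points were not. Kcnc2 at 3.66 stands far from the other points on the left, and Kcnj15 at -0.71 is the lowest on the right. Kcnd2 failed the background flag on every array behind its right-hand point.

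Among the voltage-gated genes, the silent subunits, which assemble with other subunits to modify their current, did not move as 1 group. Kcng4 was at a median of 6.71 in the total-line WT group (5.93 to 7.32) and of 5.15 in total ChREBP KO (4.93 to 5.36), without overlap. Its log2 fold change was -1.44 ± 0.16 (SE, limma adjusted p 1.24e-08). Kcnv1 was at a median of 5.41 in the WT group (5.21 to 5.85) and 6.07 in the KO (5.74 to 6.62), and rose by 0.66 ± 0.12 (SE, limma adjusted p 3.86e-05), although the arrays of the groups overlapped. The other Kcnv1 probes, outside the deposited table, were well above background on 0 arrays. Fitted without the filter on dim probes, they were at 0.14 and -0.05 and were not called. Kcns3, Kcns1, Kcng2 and Kcnv2 were not called, with log2 fold changes between 0.07 and 0.23. A second Kcng4 probe, outside the deposited table and well above background on 6 of the 32 arrays, had a log2 fold change of -0.33 when fitted without the filter on dim probes. Amigo1, an adhesion protein, was the 1 gene called among 11 measured partner genes of potassium channels, and rose by 0.61 (limma adjusted p 2.29e-08).

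Kcnc2 encodes a Shaw channel of fast-spiking neurons and had the largest increase of the family. The total-line WT arrays lay between 4.87 and 5.11, with a median of 4.91, just above the floor of the array. The total ChREBP KO arrays lay between 6.82 and 9.30, with a median of 8.85, and all 8 were above every WT array. The log2 fold change was 3.66 ± 0.23 (SE, limma adjusted p 1.31e-14), a 12.6-fold increase. The size depended on the treatment of background, from 2.64 with normexp correction to 4.87 with Agilent's processed signal. Only 4 of the 24523 genes rose further. Within the wash batches the increase was between 2.92 and 4.32. A second probe for Kcnc2, outside the deposited table, was well above background on 4 arrays of the total-line WT group, on all 8 of total ChREBP KO and on 4 in each ChREBPβ-line group, and rose by 0.88 (limma adjusted p 2.79e-09, fitted without the filter). The 4 genes read beside Kcnc2, 322 to 1934 kb away, had log2 fold changes from 0.02 to 0.41. Genes with only a clone, predicted or accession name were left out of this choice. The highest of the 4, Trhde, was the farthest and was called (limma adjusted p 0.0215). The mean of 5 neuron markers ranged from 8.66 to 8.92 over the WT arrays and from 8.48 to 8.79 over the KO arrays. Of these markers 1 was called higher and 2 lower, with log2 fold changes from -0.77 to 0.25. Of 5 Schwann cell markers 1 was called higher and 0 lower, with log2 fold changes from -0.34 to 2.59 and a median of -0.16. The part of cell content in the Kcnc2 result was not tested. The Shaw genes Kcnc1 and Kcnc4 were not called, at -0.22 and -0.06.

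**Figure D2:**
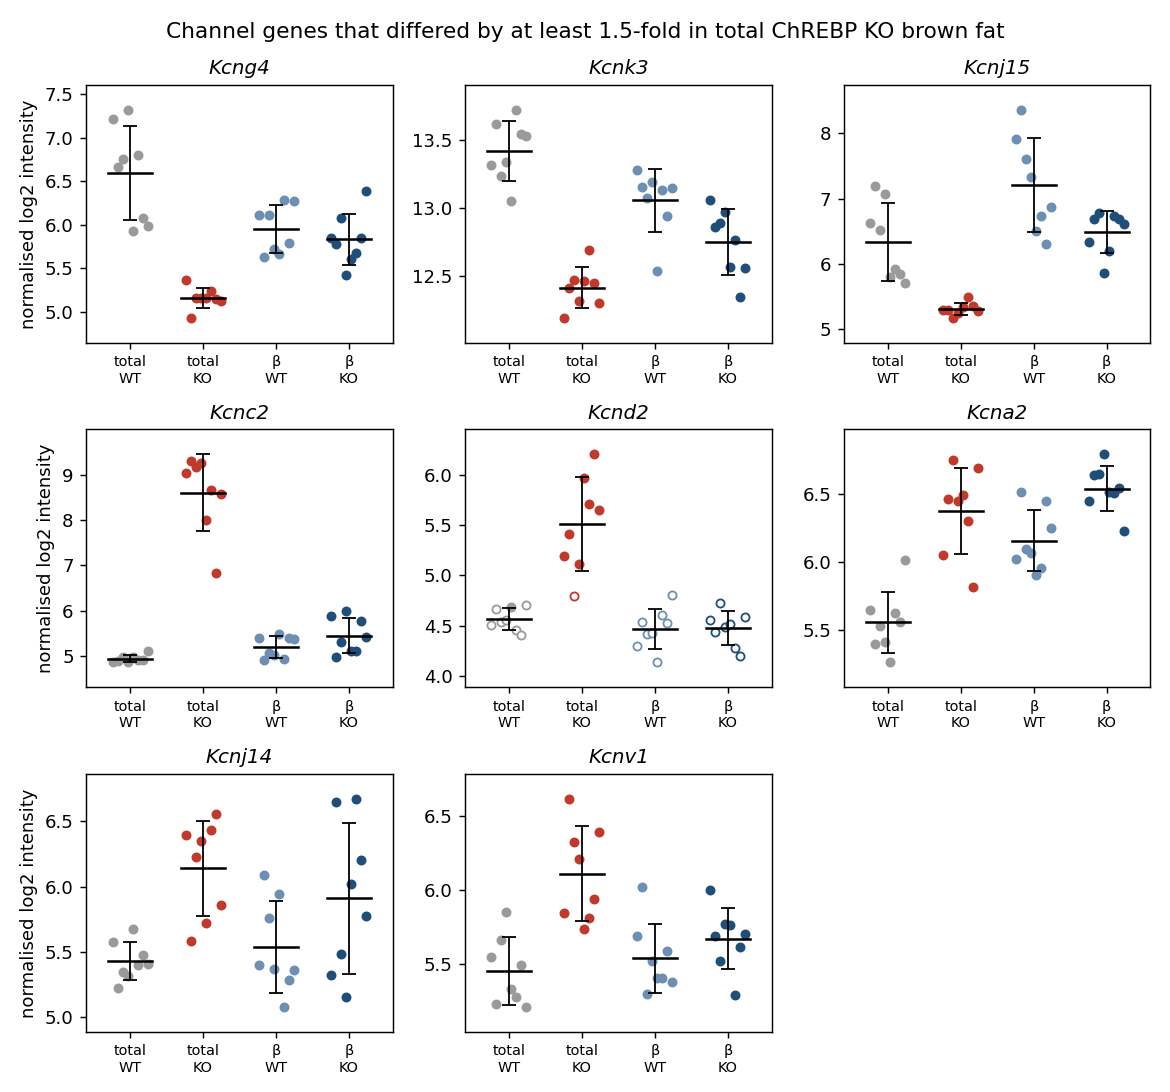
Normalised log2 intensity of 8 channel genes called with at least 1.5-fold in total ChREBP KO, 1 point per array, with the group mean and SD (n = 8). Open points were not well above background, which occurred for Kcnd2. In total ChREBP KO the lowest Kcnc2 array is at 6.82. In the ChREBPβ line Kcnc2 stays at 5.99 or lower.

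Further voltage-gated genes rose from low levels. Kcnd2, a Shal channel that carries transient currents, passed the background flag on 1 of 8 WT arrays of the total line, on 7 of 8 in total ChREBP KO and on 0 in both ChREBPβ-line groups. Its KO arrays ranged from 4.80 to 6.20 and its WT arrays from 4.40 to 4.70. The log2 fold change was 0.94 ± 0.13 (SE, limma adjusted p 5.44e-07), but since the WT group lay at the floor of the array its size is uncertain. It was 0.45 with normexp correction and 2.42 with Agilent's processed signal. Kcna2, a Shaker channel of axons, had a median of 5.54 in the WT group (5.26 to 6.01) and 6.46 in the KO (5.81 to 6.75). It rose by 0.82 ± 0.12 (SE, limma adjusted p 6e-07), and within wash batches the difference ran from 0.11 to 1.16. Smaller increases were called for Kcna7 (0.32), Kcnh6 (0.24) and Kcnd1 (0.17, limma adjusted p 0.045). Another Kcnh6 probe, outside the deposited table and well above background on all 32 arrays, was at -0.14. It was not called (limma adjusted p 0.338, fitted without the filter). The second Kcnd1 probe was not called, at 0.09. The Kcnd1 call was lost with either 75th percentile scaling, without the filter on dim probes and with the mean muscle and liver marker levels as covariates.

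Several other voltage-gated genes were not called. Kcnq5, a KCNQ channel of neurons and muscle, had a log2 fold change of -0.14 (limma adjusted p 0.144) and Kcnq1, the slow cardiac delayed rectifier, one of -0.11 (limma adjusted p 0.455). Kcnh4 was not called by its brightest probe, at 0.06, but its second probe rose by 0.25. The same held for Kcnh2, the cardiac ether-a-go-go channel, whose dimmer probe rose by 0.59 (limma adjusted p 1.35e-05) while the brightest was at 0.13.

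Among the two-pore-domain channels, Kcnk3, the acid-sensitive leak channel of brown adipocytes, fell. The WT arrays of the total line ran from 13.05 to 13.72, with a median of 13.44, and those of total ChREBP KO from 12.19 to 12.69, with a median of 12.43. The groups did not overlap, and the log2 fold change was -1.01 ± 0.10 (SE, limma adjusted p 1.56e-09), a 2.02-fold decrease. Within wash batches it was between -1.31 and -0.88. Of 10 brown adipocyte markers, 6 were called higher and 1 lower in total ChREBP KO, and the part of this in the Kcnk3 result was not tested. Kcnk5 and Kcnk7 fell by 0.33 and 0.23 near background, each well above it on fewer than 8 arrays of the KO. The call of Kcnk5 (limma adjusted p 0.0112) was lost with either 75th percentile scaling. That of Kcnk7 (limma adjusted p 0.0493) was lost with median intensities so scaled, without the filter on dim probes, with wash batch as a fixed block, with the slide as a random or fixed block and with the replicate block. Kcnk4, a mechanosensitive leak channel, rose by 0.28 on its brightest probe and by 0.84 on its second (limma adjusted p 0.000303 and 5.06e-06), both without overlap of the arrays. Kcnk6, a two-pore-domain channel of the endolysosomal membrane, was at -0.12 (limma adjusted p 0.228).

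The inward rectifiers moved in both directions. Kcnj15 had a median of 6.22 in the total-line WT group (5.70 to 7.18) and of 5.29 in total ChREBP KO (5.18 to 5.49), without overlap, and fell by 1.02 ± 0.23 (SE, limma adjusted p 0.000615). The WT arrays were more spread (SD 0.59) than the KO arrays (SD 0.09). Kcnj14 had a median of 5.40 in the WT group (5.23 to 5.68) and 6.29 in the KO (5.58 to 6.56), and rose by 0.71 ± 0.19 (SE, limma adjusted p 0.0023). Another Kcnj14 probe, outside the deposited table, was well above background on 0 arrays. It was at -0.01 and not called, fitted without the filter on dim probes. Kcnj4 rose by 0.18, a call lost with normexp correction and with the slide as a fixed block. The pores of the ATP-sensitive channels were not called. Kcnj8, which forms the vascular type, had a log2 fold change of -0.08 (95% confidence interval -0.28 to 0.11), and Kcnj11, the type of muscle and endocrine cells, one of 0.26 (-0.11 to 0.63). Their sulfonylurea receptor partners, Abcc9 at 0.04 and Abcc8 at -0.31, were not called either. Kcnj2, the classical strong inward rectifier, was at 0.01 (-0.51 to 0.53).

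Of the calcium- or sodium-activated channels, Kcnn1, a small-conductance channel, rose by 0.36 ± 0.07 (SE, limma adjusted p 0.000224). Its mean was 8.69 in the total-line WT group (arrays from 8.59 to 8.97) and 9.04 in total ChREBP KO (8.89 to 9.22), so the groups overlapped by 1 WT array. A second Kcnn1 probe rose by 0.27 and the remaining one was not called, at 0.06. Kcnt2, a sodium-activated channel, had a log2 fold change of 0.14 near background (limma adjusted p 0.0462). This call was lost with the processed signal, normexp correction, no filter on dim probes, and wash batch, slide or replicate as a fixed block. Kcnma1, the large-conductance channel, had a log2 fold change of 0.09 (limma adjusted p 0.278) and the intermediate-conductance Kcnn4 one of 0.20 (limma adjusted p 0.171).

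Of the 5 called auxiliary subunits 4 were lower. Kcnip1, a calcium-binding partner of the Shal channels, was at a median of 6.92 in the total-line WT group (6.83 to 7.10) and 6.58 in total ChREBP KO (6.33 to 6.70), without overlap, and fell by 0.37 ± 0.06 (SE, limma adjusted p 1.04e-05). Kcnip3 rose by 0.24 (limma adjusted p 0.0331), a call that was lost in a fit of only these groups, with the slide as a fixed block, with the replicate block and on leaving out any of 7 arrays, total ChREBP KO replicates 1, 2, 3 and 6 and total-line WT replicates 3, 6 and 7. The Shaker β subunits Kcnab1 and Kcnab3 fell by 0.34 each (limma adjusted p 0.000318 and 0.00166), and the second Kcnab1 probe fell by 0.29. Kcne3 had a log2 fold change of -0.21 (limma adjusted p 0.0448), a call lost with either 75th percentile scaling, normexp correction, no filter on dim probes or the marker covariates. The Shal partners Dpp6 and Dpp10 were not called, at 0.04 and 0.06.

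The starts of these genes were read in windows of 300 bases from RefSeq (GRCm38.p6), from 250 bases before to 50 after each start site. Of the 60 genes, 43 had at least 1 window, 56 windows in all. Kcnk3, Kcnj14 and Kcnv1 had no entry. The E-box CACGTG, the core of the ChREBP binding element and its own reverse complement, was found in 7 of the 56 windows (12.5%) and in 7.15% of the 32851 windows of all genes. Kcnc2, Kcng4, Kcnd2, Kcna2 and Kcnj15, each with at least 1.5-fold, had windows without an E-box. The sequences below are the window of Kcng4, which fell, the first window of Kcnc2, which rose the most, and the windows with an E-box, in capitals, of Kcnab1 and Kcnk5, which fell. The other windows with an E-box belonged to Kcne4, Kcnh4, Kcnj2 and Kcnn4, whose brightest probes were not called.
Kcng4, chr8:119635631-119635930, minus strand: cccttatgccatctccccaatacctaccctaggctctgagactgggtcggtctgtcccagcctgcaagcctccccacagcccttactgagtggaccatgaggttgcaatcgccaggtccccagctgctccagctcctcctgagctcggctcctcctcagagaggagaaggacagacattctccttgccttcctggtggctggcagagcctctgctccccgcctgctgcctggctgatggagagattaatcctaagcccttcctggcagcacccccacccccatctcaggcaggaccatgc
Kcnc2, chr10:112269767-112270066, plus strand: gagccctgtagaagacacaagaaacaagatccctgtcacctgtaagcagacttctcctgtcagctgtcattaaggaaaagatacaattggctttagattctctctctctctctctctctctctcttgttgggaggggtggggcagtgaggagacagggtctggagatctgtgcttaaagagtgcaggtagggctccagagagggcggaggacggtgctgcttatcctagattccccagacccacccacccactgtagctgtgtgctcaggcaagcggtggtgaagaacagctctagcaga
Kcnab1, chr3:65108764-65109063, plus strand: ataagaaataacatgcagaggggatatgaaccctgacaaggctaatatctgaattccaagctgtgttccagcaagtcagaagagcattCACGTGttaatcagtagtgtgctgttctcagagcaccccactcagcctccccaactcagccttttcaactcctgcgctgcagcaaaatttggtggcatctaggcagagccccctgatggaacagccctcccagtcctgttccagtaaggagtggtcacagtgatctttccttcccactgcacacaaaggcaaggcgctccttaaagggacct
Kcnab1, chr3:65187853-65188152, plus strand: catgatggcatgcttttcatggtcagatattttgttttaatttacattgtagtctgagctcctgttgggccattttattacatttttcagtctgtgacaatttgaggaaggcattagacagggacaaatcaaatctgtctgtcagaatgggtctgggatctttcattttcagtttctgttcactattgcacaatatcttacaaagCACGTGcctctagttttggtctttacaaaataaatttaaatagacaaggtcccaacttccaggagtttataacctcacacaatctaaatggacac
Kcnk5, chr14:20181733-20182032, minus strand: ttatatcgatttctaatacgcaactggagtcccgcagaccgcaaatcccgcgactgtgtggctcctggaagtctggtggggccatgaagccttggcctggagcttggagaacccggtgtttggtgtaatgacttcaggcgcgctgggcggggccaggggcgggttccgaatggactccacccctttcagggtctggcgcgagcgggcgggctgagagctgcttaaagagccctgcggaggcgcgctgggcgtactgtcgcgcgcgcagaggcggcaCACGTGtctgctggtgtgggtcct
In the Kcnab1 windows the E-box began 162 and 45 bases before the start site, and in the Kcnk5 window at base 27 after it. A match of 6 letters is a description of the window and no evidence of binding.

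The comparison of ChREBPβ KO with its WT group asked which channel genes change when the β isoform is lost. The increase of the α isoform that the paper reports is part of this comparison. Of the 60 channel genes 1 was called, where 2.70% of all genes were. An unadjusted limma p under 0.05 was found for 8 of the 60, and for 3458 of all 24523 genes. None passed the test at 1.5-fold or more, against 0.604% of all genes. The median log2 fold change of the 60 genes was 0.00.

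Several genes that changed in total ChREBP KO had smaller differences in ChREBPβ KO that did not pass the test. Kcnj15 had a median of 7.10 in the ChREBPβ-line WT group (6.31 to 8.35) and of 6.65 in ChREBPβ KO (5.86 to 6.78), a difference of -0.71 ± 0.23 (SE) that was not called (limma adjusted p 0.107). Within wash batches it ran from -2.26 to 0.20. It passed the test on leaving out ChREBPβ-line WT replicate 5 or 7 (lowest limma adjusted p 0.0349). Kcnk3 had a median of 13.14 in the WT group (12.54 to 13.28) and of 12.81 in the KO (12.34 to 13.06), a difference of -0.31 ± 0.10 (SE), not called either (limma adjusted p 0.122). It was lower in all 4 wash batches, by -0.45 to -0.14, and passed the test with the replicate block (adjusted p 0.0351) and without ChREBPβ-line WT replicate 5 (-0.38, adjusted p 0.0177). Kcna2 had a log2 fold change of 0.38 (limma adjusted p 0.0687), with 8 of 8 KO values above the mean of the WT arrays. It passed with normexp correction (adjusted p 0.0354) and on leaving out any of 4 arrays, ChREBPβ-line WT replicates 2 and 7, ChREBPβ KO replicate 8 and total ChREBP KO replicate 7 (lowest adjusted p 0.0373). Kcnj14 was at 0.37 (limma adjusted p 0.378). Kcnj11, which was not called in total ChREBP KO, was at -0.40 (limma adjusted p 0.315). Kcnc2 was at 0.25 (95% confidence interval -0.21 to 0.72), Kcng4 at -0.12 (-0.45 to 0.22) and for Kcnd2, which failed the background flag on all arrays of both groups, no fold is given.

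**Figure D3:**
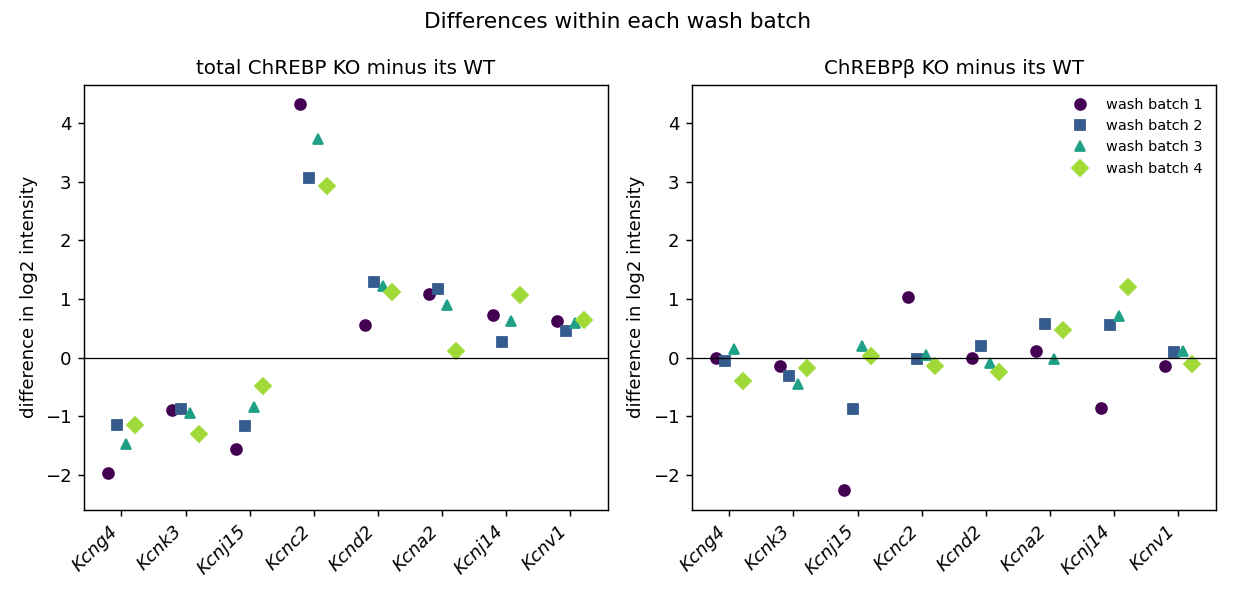
Difference in mean log2 intensity between KO and WT arrays of the same line within each of the 4 wash batches given by the labels, for 8 genes called with at least 1.5-fold in total ChREBP KO. Each point rests on 1 to 3 arrays a group. In the total line all 8 genes keep 1 direction in all 4 batches, and in the ChREBPβ line this holds for Kcnk3 (-0.45 to -0.14).

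Whether the KO effects differed was tested directly, as the ChREBPβ KO effect minus the total ChREBP KO effect. Of the 60 genes 14 were called, 6 higher and 8 lower, where 25.2% of all genes were (12.2% higher and 13.0% lower). A difference of at least 1.5-fold was found for 5, against 7.89% of all genes. Of all called genes 48.2% were higher. With median intensities scaled to the 75th percentile 4 channel genes were higher and 15 lower, and 41.7% of all called genes were higher. With the processed signal so scaled, 5 were higher and 8 lower, and 53.2% of all called genes were higher. Kcnc2 differed by -3.41 ± 0.32 (SE, limma adjusted p 8.91e-10), Kcng4 by 1.32 (adjusted p 6.45e-05) and Kcnk3 by 0.70 (adjusted p 0.000559). Kcnv1 differed by -0.53 (limma adjusted p 0.0223). For Kcnd2, which was not measured above background in either ChREBPβ-line group, no difference is given. For Kcna2 the difference was -0.44 (limma adjusted p 0.0477), a call lost without the filter on dim probes, with normexp background correction and on leaving out any 1 of 22 of the 32 arrays. Kcnj15 (0.31, limma adjusted p 0.555) and Kcnj14 (-0.34, limma adjusted p 0.394) were not shown to differ between the lines.

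A comparison between the WT groups shows how far the lines differ without any deletion. Of the 60 genes 23 were called, 11 higher and 12 lower in the ChREBPβ-line WT group, where 38.9% of all genes were (24.8% higher and 14.1% lower). For 7 genes the change was at least 1.5-fold, against 8.01% of all genes. The groups did not overlap for 8 genes, against 9.46% of all genes. These WT arrays also enter the KO contrasts. With the mean levels of the skeletal muscle and liver markers as covariates, 8 genes were called. The genes named next were chosen after their values were seen. Kcnj12 and Kcnj2, the strong inward rectifiers of striated muscle, had lower WT levels in the ChREBPβ line, by -2.97 and -2.40 (limma adjusted p 1.63e-09 and 9.12e-09). The second probe of each was called lower too, by -2.57 for Kcnj12 and by -0.51 for Kcnj2. This Kcnj2 probe was well above background on only 11 arrays. Kcnj12 ranged from 6.68 to 9.27 over WT arrays of the total line and from 4.80 to 6.32 over those of the ChREBPβ line, without overlap. Kcnc4 (-1.43) and Kcnc1 (-1.18) were lower too. With the marker covariates Kcnj12, Kcnj2 and Kcnc1 kept the call and Kcnc4 lost it. All 10 skeletal muscle markers were lower in the same comparison, with a median of -6.39, and for all 4 channel genes the means of both total-line groups were above those of both ChREBPβ-line groups. The muscle marker means were 12.86 or higher in the total line and 11.99 or lower in the ChREBPβ line. Because they do not overlap, the covariate fit cannot separate the muscle signal from the line, whether a call was kept or lost. The part of the muscle signal in these differences was not tested.

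**Figure D4:**
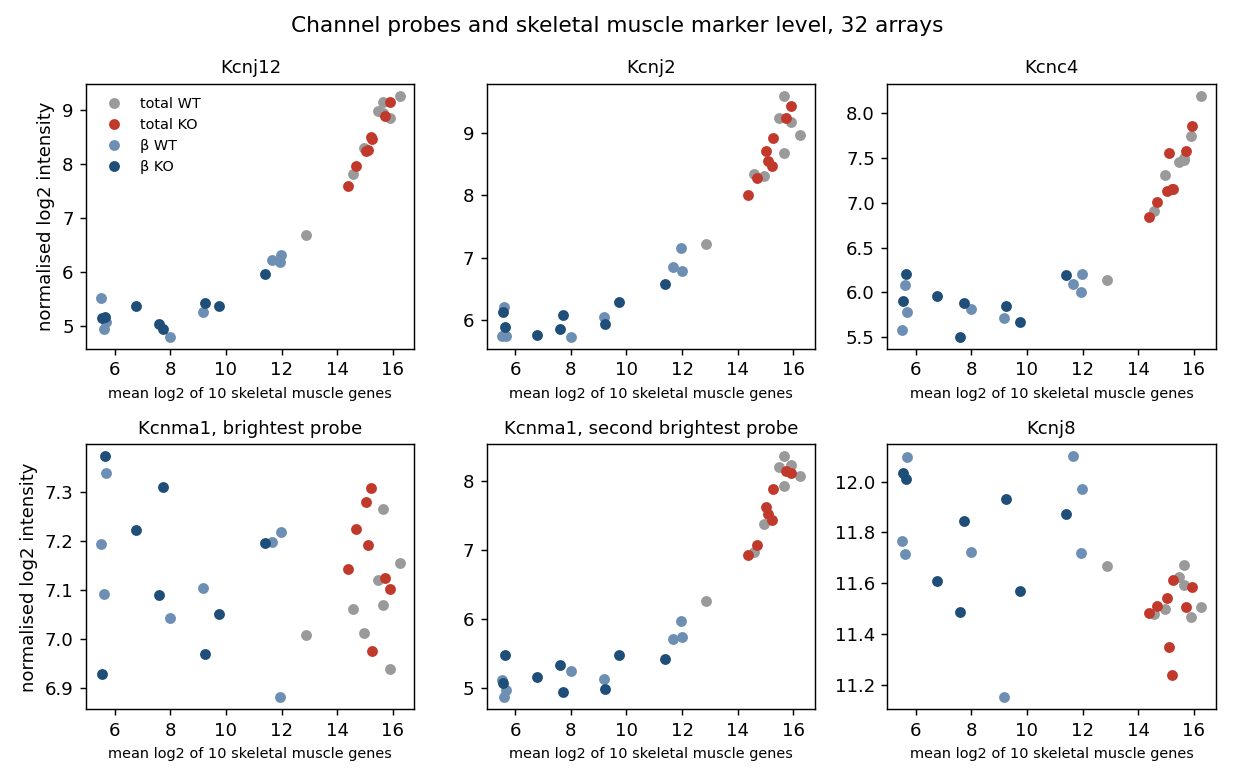
Normalised log2 intensity of 6 channel probes (vertical) against the mean log2 intensity of 10 skeletal muscle marker genes on the same array (horizontal), for the 32 arrays in their 4 groups. Kcnj12, Kcnj2, Kcnc4 and the second brightest Kcnma1 probe have higher means in the total line, whose muscle means are 12.86 or higher, than in the ChREBPβ line, whose muscle means are 11.99 or lower, while the brightest Kcnma1 probe spans 6.88 to 7.37 over the whole range.

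Kcnma1 shows how far probes of 1 gene can disagree. Its brightest probe did not differ between the WT groups (0.05, limma adjusted p 0.543), and its arrays spanned 6.88 to 7.37 over the 32 arrays. The 5 other Kcnma1 probes differed by -2.33 to -1.07, all called lower in the ChREBPβ line. On 1 of them, not well above background on any ChREBPβ-line array, the total-line WT level, measured on 7 of 8 arrays, was at least 1.72-fold higher. None of the 6 probes was called in either KO contrast. Kcnq5 was the 1 gene with probes called in opposite directions between the WT groups. Of its 3 probes 1 was called higher and 1 lower, and their log2 fold changes ran from -0.58 to 0.26. Of the genes that changed in total ChREBP KO, Kcna2 (0.60) and Kcnj15 (0.87) were higher and Kcng4 (-0.64) and Kcnk3 (-0.36) lower among WT arrays of the ChREBPβ line, and all of these except Kcnk3 lost the call with the marker covariates. In that fit the difference was 0.27 for Kcna2, 0.93 for Kcnj15 and -0.52 for Kcng4.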

How the data were processed

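Each of 32 one-colour Agilent arrays measured RNA from brown adipose tissue. The deposited scanner files hold spot intensity from Agilent Feature Extraction 10.10.1.1 (version per the submitters' processing notes), and the authors also deposited a normalised log2 table. Spots were kept when they were no controls and passed the scanner's flags, well above background included, on at least 26 of 32 arrays or 6 arrays of 1 group. Log2 median intensities were quantile normalised, and spots of a probe were summarised by their median. Group means were fitted over all 32 arrays with limma 3.58.1 in R 4.3.3, with Benjamini-Hochberg adjustment over all probes and a threshold of 0.05. A gene was read by its brightest probe. The fitting code was tested on simulated data. "At least N-fold" sets the brighter group's mean against the dimmer group's floor, the lowest signal well above background on each array. The number of arrays limits the precision. Alternatives covered the signal, background correction, scaling, filters, the deposited table, wash batch, slide (15 slides), replicate block, marker covariates and leaving out each array.

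Genes described in full were those called with at least 1.5-fold in either KO contrast, the pair of brightest genes of each family, and Kcnk3, Kcnj8, Kcnj11, Kcnma1, Kcnn4 and Kcnq1. Some of these genes are not reported here, and the counts include them. Other genes named were chosen after their values were seen. The members and all lists were chosen with earlier results of these data known, those of Kcnc2 included. Probe positions are those of the scanner files (mm9). Promoter windows come from RefSeq (GRCm38.p6), and protein sequences were not analysed here.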

Additional observations from a re-analysis of the deposited data

Results flagged for a closer look

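The KO effects differed between the lines for 7 of the genes described in full and reported here. Only genes well above background on some array of every group were counted, which leaves out Kcnd2. The limma test was of the ChREBPβ KO effect minus the total ChREBP KO effect (log2). Its value was 1.32 for Kcng4, 0.70 for Kcnk3 and 0.41 for Kcnip1. It was -3.41 for Kcnc2, -0.53 for Kcnv1, -0.44 for Kcna2 and -0.40 for Kcnn1.

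Among the genes reported here, a lone array stood apart by Dixon's criterion in 3 groups. The 84 groups looked at include those of genes not reported here. The 3 can therefore not be set against the 1 in 20 or so that chance gives. Kcnk3 was lowest at 12.54 in ChREBPβ-line WT replicate 5. Kcnj8 was lowest at 11.15 in ChREBPβ-line WT replicate 6. Kcnn1 was highest at 8.97 in total-line WT replicate 3.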

How the results depend on the processing

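Of 84 results for single genes, 69 kept their side of the threshold under all processing alternatives other than leaving out arrays, 9 lost a call under at least 1, 6 gained one and 0 reversed. The 25 genes called in total ChREBP KO became 9 with at least 1.5-fold and 20 to 25 on leaving out 1 array. The 14 called for the difference between the KO effects became 5 with at least 1.5-fold and 11 to 16 on leaving out 1 array. The 23 called between the WT groups became 7 with at least 1.5-fold, 8 with the muscle and liver marker covariates and 22 to 26 on leaving out 1 array. The 1 gene called in ChREBPβ KO became 0 with at least 1.5-fold, with the processed signal or with the slide as a fixed block, 2 with normexp or the replicate block, and 0 to 3 on leaving out 1 array: 0 without ChREBPβ KO replicate 5 or 7 or ChREBPβ-line WT replicate 6, 2 without ChREBPβ KO replicate 3, ChREBPβ-line WT replicate 2 or total ChREBP KO replicate 7, and 3 without ChREBPβ-line WT replicate 5 or 7. The cause was not tested. In total ChREBP KO the log2 fold changes with normexp correction and with the processed signal were -0.86 and -2.10 for Kcng4, -0.63 and -1.55 for Kcnj15, 0.51 and 1.19 for Kcna2, 0.42 and 1.07 for Kcnj14, and 0.39 and 1.08 for Kcnv1, each still called.

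Same-numbered KO and WT arrays deviated together in 0 of 8 pairs of the total line and in 6 of 8 of the ChREBPβ line (correlation over 0.1). In the ChREBPβ line the median correlation was 0.25 against -0.13 for other pairs, and 1 of 8 KO arrays correlated best with its own number. The labels do not say what a number marks and not every pair correlated, so the samples were not taken as paired, and what the numbers of the ChREBPβ line share was not settled. With the replicate block, 21 genes were called in total ChREBP KO, 2 in ChREBPβ KO, Kcnk3 among them, and 13 for the difference. The block was not run between the WT groups, because it lies within a line. Low signal limits the 22 probes that were not well above background on every array.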
